A study of Rattus norvegicus with 9 samples.

Results

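Hepatic macrophages were compared between the tenth and the third day after partial ligation of the portal vein (PPVL), 10 days against 3 days, with 3 male Sprague-Dawley rats at each day. These are 6 of the 9 arrays of the series, chosen by their titles alone. The other 3 arrays are from sham rats, in which the portal vein was exposed and dissected but not tied, and their levels are set beside those of the 2 days. In PPVL a ligature tied over a blunt needle leaves a calibrated narrowing of the portal vein, which serves as a model of portal hypertension before the liver. Each array is labelled as 1 rat liver, and no pooling, genotype change or drug is given. The labels give no day for the sham rats, no age, and no sort or surface marker for the cells, which were isolated from whole liver. Time since the operation and the course of the response to the ligature cannot be told apart in this comparison. The measurement is the log2 signal of 1-colour Affymetrix arrays as processed by the authors. For each gene the text gives a log2 difference, 10 days minus 3 days, ± its standard error (SE) with n = 3 rats per group. A gene is said to have risen or fallen only if the moderated test of limma passed an adjusted p of 0.05 (Benjamini-Hochberg over 14014 genes). For all other genes the value is given without a call. Differences from sham share arrays with the comparison of the days and are not independent of it.

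Macrophages of the liver include Kupffer cells, which reside in the sinusoids and take up endotoxin, debris and aged red cells from portal blood, and cells that derive from blood monocytes after injury. Both kinds secrete cytokines, prostanoids, proteases and matrix proteins that act on sinusoidal endothelium and stellate cells. When the portal vein is narrowed, portal inflow and portal pressure change and collateral vessels form over days, so that early and later stages of the model differ.

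Labelled identity and array quality were checked on all 9 arrays. The macrophage genes Csf1r, the receptor for macrophage colony-stimulating factor, Cd68 and Lyz2 were above the filter for dim genes (4.16) on every array. Csf1r lay between 9.75 and 10.62, Cd68 between 10.74 and 11.42 and Lyz2 between 12.61 and 13.09. The Kupffer cell lectin Clec4f lay between 4.51 and 5.82 and the haemoglobin scavenger receptor Cd163 between 4.22 and 5.11, close to that filter. Lymphocyte genes were also present, with the T cell gene Cd5 between 8.23 and 9.01 and the granzyme Gzmc between 9.24 and 10.15. The median signal of an array was 5.21 to 5.26.

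Between 3 and 10 days the called changes were few, and most were falls. The secreted semaphorin Sema3c, the serine protease Htra4, the membrane glycoprotein Prom1, the ciliary protein Enkur, fibronectin (Fn1), coagulation factor V (F5) and the cytokine Il36b fell. The interleukin 23 receptor Il23r, the immunoglobulin kappa segment Igkvl7 and the ribosomal protein pseudogene Rpl26-ps13 rose. The mean signal of Il23r reached the filter for dim genes only through its 10-day values. In all, 10 genes passed, which is 0.0714% of those tested, with 7 lower at 10 days (0.05%) and 3 higher (0.0214%). Before adjustment, 1578 genes had a p under 0.05, 872 lower and 706 higher, where 700.7 are expected on average by chance. Genes that shift together on an array can move such a count far from that average. The excess therefore gives no number of changed genes. The 6 rats of the 2 days did not overlap for 1084 genes that were lower at 10 days (7.74%) and for 967 that were higher (6.9%). The median difference over all genes was 0.0053, and 95% of genes lay between -0.36 and 0.29. After quantile normalization the balance turned, with 992 genes lower and 1316 higher without overlap. The calls depended on single arrays. Without sham rat 2, 3-day rat 1 or 10-day rat 3, 0 genes passed. Without 10-day rat 1, 1 gene passed, which was none of the 10. Of the 10 genes, 8 still passed when sham rat 1 was left out and 4 when it was sham rat 3. Leaving out 3-day rat 2 or 3-day rat 3 kept 5 of them in each case, and leaving out 10-day rat 2 kept 4. In a fit of the 6 PPVL arrays alone, F5 was the sole gene of the 10 to pass, while Sema3c and Enkur were at an adjusted p of 0.0613, Fn1 at 0.0696, Prom1 at 0.0705 and Htra4 at 0.0758. All 10 genes kept their direction in each of those fits, and with quantile normalization 7 passed as lower and 1 as higher. When the fit included the mean level of T and natural killer cell markers on each array, 0 genes passed, with adjusted p of 0.536 to 0.554 for the 10. In that fit the standard errors were larger, and the differences were -1.28 ± 0.22 for Sema3c, -0.94 ± 0.18 for Prom1, -0.87 ± 0.16 for Fn1 and -0.85 ± 0.13 for F5. Those of Htra4 (-0.72 ± 0.14), Enkur (-0.58 ± 0.09) and Igkvl7 (0.58 ± 0.13) were smaller than without the markers.

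Sema3c, which signals through neuropilins and plexins to vessels and neurons, had the largest called difference. Its log2 signal was 8.06, 7.85 and 7.54 in the 3 rats at 3 days and 6.56, 6.60 and 6.32 at 10 days, against 5.72, 6.01 and 5.96 in sham. The 3 groups did not overlap, and the 10-day rats lay between the others. The difference was -1.32 ± 0.14, a 2.5-fold fall (adjusted p = 0.0165). Fn1, which encodes an adhesive protein of the provisional matrix, was 11.95, 11.79 and 11.63 at 3 days and 11.02, 11.02 and 10.99 at 10 days. Its sham values were 10.29, 10.60 and 10.55, so its 10-day rats also lay between the other groups. The Fn1 difference was -0.78 ± 0.10 (1.72-fold, adjusted p = 0.0324). F5, the cofactor of the protease that forms thrombin, was 8.52, 8.39 and 8.42 at 3 days and 7.61, 7.67 and 7.75 at 10 days, with 7.25, 7.38 and 7.53 in sham. It fell by 0.77 ± 0.08 (adjusted p = 0.0165). Prom1, a pentaspan glycoprotein of membrane protrusions known as CD133, was 6.48, 6.08 and 6.28 at 3 days and 5.34, 5.37 and 5.41 at 10 days. Its sham values of 5.0, 4.91 and 5.22 were below both days, and the difference between the days was -0.91 ± 0.11 (adjusted p = 0.0291).

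For the other 3 genes that fell, the 10-day rats overlapped the sham rats. Htra4, a secreted protease of the HtrA family, was 8.60, 8.36 and 8.27 at 3 days, 7.42, 7.63 and 7.39 at 10 days and 7.57, 7.37 and 7.40 in sham. Its difference between the days was -0.92 ± 0.10 (adjusted p = 0.0194), and its difference between 10 days and sham was 0.03 ± 0.10. Enkur was 5.90, 6.04 and 5.85 at 3 days, 5.07, 5.28 and 5.08 at 10 days and 5.25, 5.12 and 5.13 in sham. The fall of Enkur was -0.79 ± 0.08 (adjusted p = 0.0165). Il36b, a cytokine of the interleukin 1 family, was 5.83, 6.07 and 5.79 at 3 days, 5.21, 4.97 and 5.28 at 10 days and 5.06, 5.0 and 5.05 in sham. It fell by 0.74 ± 0.10 (adjusted p = 0.0324). The call of Il36b was lost in all 9 fits that left out 1 array, with adjusted p from 0.0512 to 0.130.

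Il23r, a receptor subunit known from T cells and innate lymphocytes, was close to the filter for dim genes. Its signal was 4.08, 3.90 and 3.90 at 3 days and 4.48, 4.52 and 4.68 at 10 days, with 4.10, 4.02 and 4.13 in sham. It rose by 0.60 ± 0.08 (adjusted p = 0.0324), and the 10-day rats were above all others. All its sham and 3-day values lay below that filter (4.16), so it entered the test only through its 10-day values. Igkvl7 was 4.62, 4.55 and 4.43 at 3 days, 5.38, 5.08 and 5.42 at 10 days and 5.02, 5.13 and 5.03 in sham. Here the 3-day rats were the lowest, and the rise from them was 0.76 ± 0.09 (adjusted p = 0.0324). Rpl26-ps13 was 5.57, 5.41 and 5.38 at 3 days and 5.92, 6.14 and 6.20 at 10 days, a rise of 0.63 ± 0.09 (adjusted p = 0.0461). Kappa segments and ribosomal protein pseudogenes have near-identical copies in the genome, so these 2 probesets may read several genes. The calls of Il23r and Rpl26-ps13 were lost with quantile normalization (adjusted p = 0.0510 for each). With 1 array left out, Rpl26-ps13 passed in 0 of 9 fits (adjusted p from 0.0712 to 0.189) and Il23r in 1 of 9 (0.0485 to 0.130). The call of Rpl26-ps13 was also lost with array weights, with trended moderation and with no filter (adjusted p from 0.0532 to 0.0594).

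**Figure D1:**
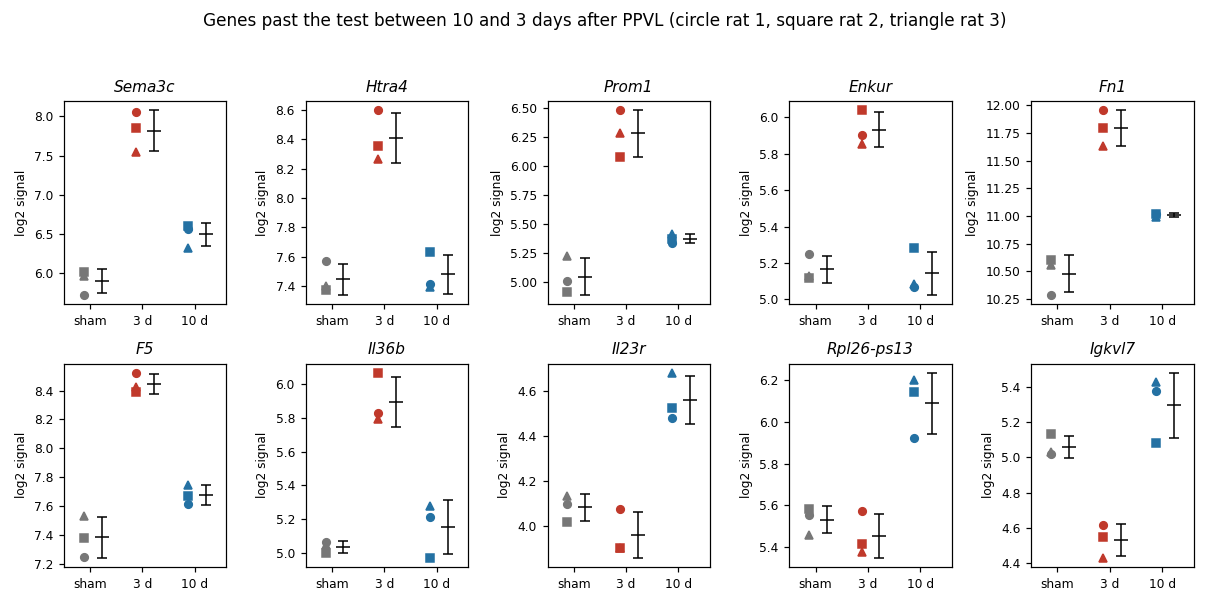
Log2 signal of each of the 10 genes past the test, 1 panel a gene, in sham rats and at 3 and 10 days after PPVL (3 rats each, with the mean ± SD in black beside them). Each panel has its own vertical axis, which does not start at 0. Sema3c, Fn1, F5 and Prom1 at 10 days lie between sham and 3 days, while Htra4, Enkur and Il36b at 10 days lie within or across the range of sham.

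Below the threshold, the genes with the smallest p among those that differed by at least 1.5-fold without overlap came from several functions. Serpinb10, a protease inhibitor of blood-forming cells, was 6.23, 6.05 and 6.03 at 3 days and 4.87, 4.84 and 4.78 at 10 days (-1.27 ± 0.22, adjusted p = 0.126). It passed in the fit of the 6 PPVL arrays alone (adjusted p = 0.00777) and without sham rat 1 (adjusted p = 0.000704), whose value of 4.51 stood below the other sham rats at 5.43 and 5.51. Dab2, an adaptor of endocytosis, differed by -0.67 ± 0.13 (adjusted p = 0.172), and Lrp12, a receptor of the low-density lipoprotein receptor family, by -0.59 ± 0.11 (adjusted p = 0.151). In the other direction stood the olfactory receptor genes Or8a1b (1.09 ± 0.21, adjusted p = 0.172) and Or4f61b, besides Mir877 and Sqle, which are described below. Or8a1b was 4.83, 4.54 and 4.68 at 3 days and 5.62, 5.48 and 6.24 at 10 days. At larger p than Or8a1b came Kmo, an enzyme of tryptophan breakdown (0.61 ± 0.15, adjusted p = 0.236), and the myeloid ribonuclease Rnase6 (0.63 ± 0.15, adjusted p = 0.216). The adhesion molecule Cadm1 (0.66 ± 0.18, adjusted p = 0.267) did so too. Rnase6 was 9.77, 10.35 and 10.33 at 3 days, below 10.92, 10.69 and 10.71 at 10 days and 10.69, 10.89 and 10.97 in sham. RT1-T24-3, a class I histocompatibility gene, was 7.35, 8.69 and 7.85 at 3 days and 9.27, 9.15 and 9.09 at 10 days (1.21 ± 0.26, adjusted p = 0.197). It belongs to a family of near-identical genes, and without 3-day rat 2 it differed by 1.57 (adjusted p = 0.0302).

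**Figure D2:**
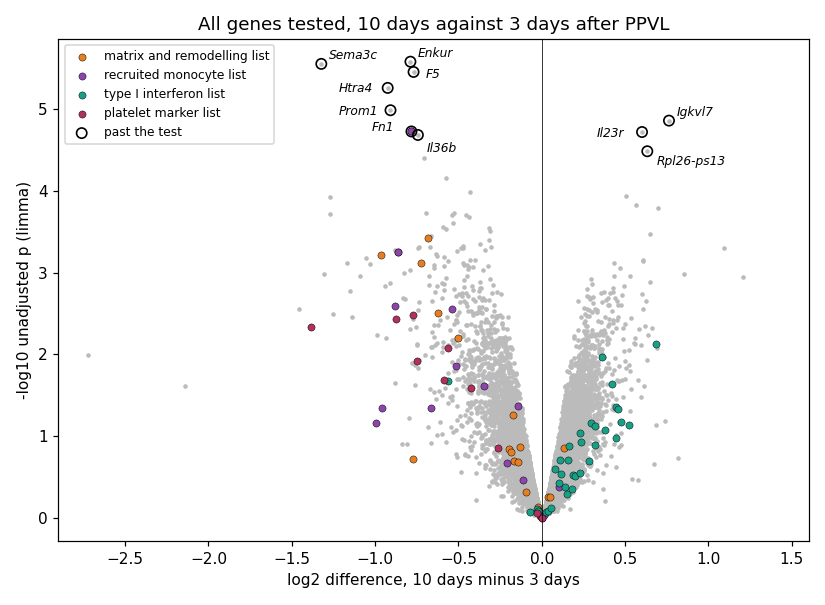
Log2 difference (10 days minus 3 days, horizontal) against -log10 of the unadjusted p of limma (vertical) for the 14014 genes tested (grey). Rings mark the 10 genes past the test, and colours mark 4 lists: most matrix, monocyte and platelet genes lie left of 0 and most interferon response genes right of 0.

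Most matrix proteins and the proteases that act on them had differences below 0, none of them as large as 2-fold. Of 22 tested genes of this list, Fn1 fell and none rose, and 7 were lower at 10 days without overlap between the days, where 7.74% of all genes were. The list's median difference was -0.17, with 19 of 22 genes below 0. The membrane-bound metalloproteinase Mmp14 was 9.47, 9.20 and 8.79 at 3 days and 7.87, 8.22 and 8.47 at 10 days, against 7.39, 7.36 and 7.73 in sham (-0.97 ± 0.19, adjusted p = 0.178). Its 10-day rats lay between sham and 3 days without overlap to the latter. Timp1, an inhibitor of metalloproteinases, was 10.54, 10.40 and 9.97 at 3 days and 9.54, 9.58 and 9.62 at 10 days (-0.73 ± 0.15, adjusted p = 0.178). Its sham rats at 9.57, 9.80 and 10.04 reached into the 3-day range. The proteoglycan Vcan differed by -0.86 ± 0.17 (adjusted p = 0.172), Ecm1 by -0.68 ± 0.13 (adjusted p = 0.172), the lubricin gene Prg4 by -0.63 ± 0.16 (adjusted p = 0.239) and the plasminogen activator Plau by -0.50 ± 0.14 (adjusted p = 0.282). Prg4 at 10 days (7.99, 7.85 and 8.33) remained above sham (6.72, 7.13 and 7.05), whereas Ecm1 at 10 days (5.72, 6.03 and 5.97) overlapped sham (5.89, 5.93 and 6.14).

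Genes of recruited monocytes had the lowest median among the gene lists, -0.51 over 15 tested genes. Of these Fn1 fell, none rose, and 6 were lower at 10 days without overlap, against 7.74% of all genes. The list's median was -0.34 without 3-day rat 2. Ccr2, the receptor that draws monocytes out of the marrow, was 10.52, 10.77 and 9.97 at 3 days and 9.75, 9.97 and 10.00 at 10 days, and these ranges overlapped (-0.51 ± 0.17, adjusted p = 0.329, with a difference of -0.34 when 3-day rat 2 was left out). F13a1, the transglutaminase of clot cross-linking, differed by -0.88 ± 0.22 (adjusted p = 0.228), and by -1.17 without 3-day rat 2, where it passed (adjusted p = 0.0302). The markers of platelets and neutrophils differed beside these values, and their part was not tested. The lists share members and are not independent: S100a8 and S100a9 were written in the monocyte and the neutrophil list. Fn1, Vcan and Thbs1 were written in the monocyte and the matrix list, so the fall of Fn1 is the same call in both. Clec1b was written in the Kupffer cell and the platelet list. The platelet score, the mean of 10 platelet genes relative to their mean over the 9 arrays, was 0.50, -0.16 and 0.57 in 3-day rats 1 to 3 and -0.32, -0.36 and -0.10 at 10 days. F13a1, also a platelet gene, was 6.65, 5.97 and 7.03 in 3-day rats 1 to 3, and F5 was 8.52, 8.39 and 8.42. Both were lowest in rat 2 at that day, and the relation of either to the platelet score was not tested. The neutrophil score was 0.45, 0.46 and -0.08 at 3 days and 0.02, -0.05 and -0.48 at 10 days.

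Among 22 inflammatory cytokine and enzyme genes none passed. At 10 days 8 were lower and 1 higher without overlap, against 7.74% and 6.9% of all genes. The median difference of the list was -0.23. That median was -0.35 without 10-day rat 1 and -0.14 without 10-day rat 2. Ptgs2, the inducible cyclooxygenase, was 12.35, 12.16 and 11.89 at 3 days and 11.50, 11.54 and 11.28 at 10 days. The 10-day rats were also below the sham rats at 11.78, 11.80 and 11.97, and the difference between the days was -0.69 ± 0.12 (adjusted p = 0.126). Osm, a cytokine of the interleukin 6 family, was 9.72, 9.97 and 9.63 at 3 days and 9.23, 9.25 and 9.22 at 10 days (-0.54 ± 0.09, adjusted p = 0.126). The growth factors of myeloid cells showed larger differences with wider spread. Csf1, on which macrophages depend, was 11.21, 11.17 and 10.75 at 3 days and 10.07, 10.05 and 9.50 at 10 days, near the sham values of 9.03, 9.79 and 9.91 (-1.17 ± 0.24, adjusted p = 0.178). Csf3, the growth factor of granulocytes, was 8.78, 7.88 and 7.38 at 3 days and 6.84, 6.88 and 6.89 at 10 days, below sham at 7.83, 7.26 and 7.84 (-1.14 ± 0.30, adjusted p = 0.242, with a difference of -0.76 when 3-day rat 1 was left out). Cd80, a co-stimulatory ligand for T cells, went the other way, with 10.51, 11.09 and 10.90 at 3 days and 11.54, 11.24 and 11.32 at 10 days (0.53 ± 0.14, adjusted p = 0.244).

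The classical cytokines gave no call. Il1a differed by -0.50 ± 0.15 (adjusted p = 0.282) and Il1b by -0.38 ± 0.12 (adjusted p = 0.316), both without overlap between the days. Il6 was 7.97, 7.15 and 6.67 at 3 days and 6.70, 6.39 and 6.41 at 10 days, which overlap (-0.76 ± 0.28, adjusted p = 0.376, with a difference of -0.41 when 3-day rat 1 was left out). For Tnf the 95% interval of the difference ran from -0.67 to 0.08, and for the inducible nitric oxide synthase Nos2 from -0.39 to 0.06. Of 22 chemokine genes none passed, and the median was -0.06. At 10 days 3 of them were lower without overlap, where 7.74% of all genes were. The neutrophil-attracting Cxcl1 was 9.54, 9.06 and 8.70 at 3 days and 8.27, 8.13 and 8.42 at 10 days, the latter around the sham values of 8.26, 8.41 and 8.44 (-0.83 ± 0.18, adjusted p = 0.194). The monocyte attractant Ccl2 differed by -0.18 ± 0.08 and the eosinophil attractant Ccl24 by -0.48 ± 0.24, with overlap in both (adjusted p = 0.457 and 0.490). Ccl24 differed by -0.19 without 3-day rat 3 and by -0.74 without 3-day rat 1. Among immediate early genes, which respond to cell isolation, 5 of 25 were lower and 1 higher at 10 days without overlap. Of all genes 7.74% were lower and 6.9% higher in this way. The immediate early genes had a median difference of -0.07. Their score was 0.14, 0.03 and -0.01 at 3 days and -0.05, -0.03 and -0.07 at 10 days, and its part in the cytokine values was not tested.

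**Figure D3:**
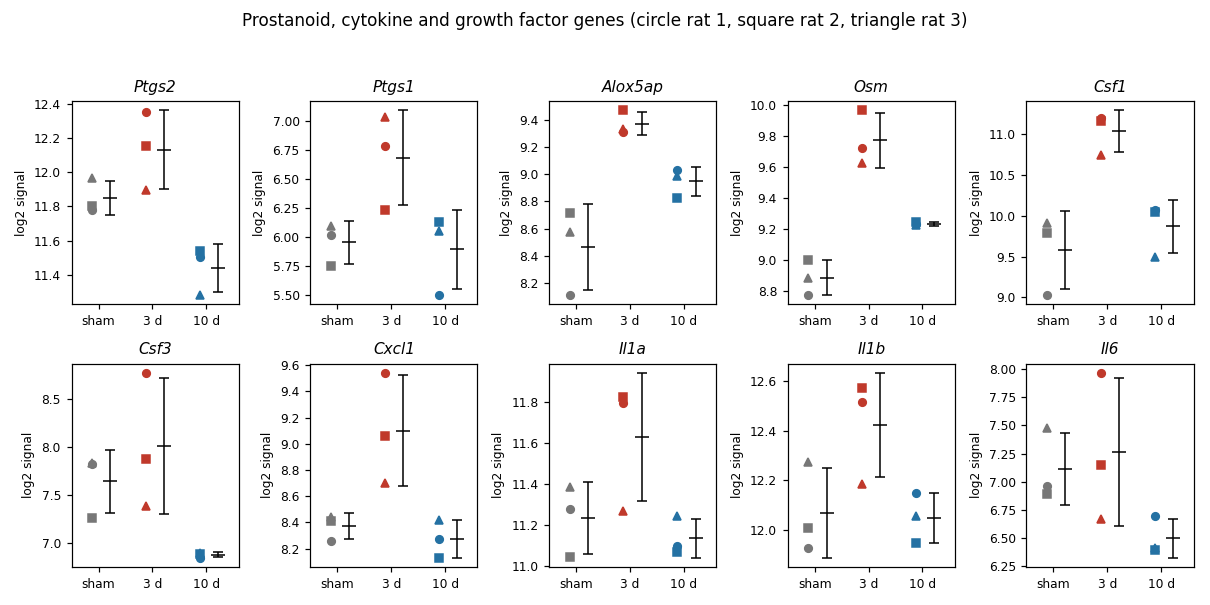
Log2 signal of 10 genes of prostanoids, cytokines and growth factors in sham rats and at 3 and 10 days after PPVL (3 rats each, mean ± SD in black), none of which passed the test. Each panel has its own vertical axis, which does not start at 0. Ptgs2, Osm, Csf1, Cxcl1, Il1a and Il1b do not overlap between the days, and Il6 does.

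No gene of vasoactive lipids and nitric oxide passed the test. Of 28 tested genes of this list 19 lay below 0. Without overlap 8 were lower and 2 higher, against 7.74% and 6.9% of all genes. The list's median was -0.15, or -0.06 without 3-day rat 2 and -0.10 without 10-day rat 3. The constitutive cyclooxygenase Ptgs1 was 6.78, 6.23 and 7.04 at 3 days and 5.5, 6.13 and 6.05 at 10 days, the latter spanning the sham values of 6.02, 5.74 and 6.09 (-0.79 ± 0.22, adjusted p = 0.269). In 3-day rat 2 both Ptgs1 and the platelet score were the lowest of that day, and a relation between them was not tested. Alox5ap, which hands arachidonate to the enzyme of leukotriene synthesis, was 9.31, 9.47 and 9.33 at 3 days and 9.03, 8.82 and 8.99 at 10 days (-0.42 ± 0.14, adjusted p = 0.320). Thromboxane synthase (Tbxas1) was 8.87, 9.03 and 8.67 at 3 days and 8.69, 8.54 and 8.58 at 10 days, both above sham at 7.62, 7.93 and 7.83. Its difference was -0.25 ± 0.11 (adjusted p = 0.415). Arginase 1 (Arg1), which competes with nitric oxide synthase for arginine, was 9.98, 9.78 and 10.02 at 3 days and 10.09, 9.51 and 9.09 at 10 days, with overlap (-0.36 ± 0.20, adjusted p = 0.533). The Arg1 difference was -0.13 without 10-day rat 3 and -0.62 without 10-day rat 1. Ddah1, which degrades methylated arginines that block nitric oxide synthases, differed by -0.26 ± 0.07 (adjusted p = 0.282).

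No identity gene of macrophages passed the test between the days. Of 20 general macrophage genes none passed and the median was -0.09. Adgre1, an adhesion receptor of mature macrophages, was 8.25, 8.68 and 8.58 at 3 days and 8.83, 8.67 and 8.98 at 10 days (0.33 ± 0.12, adjusted p = 0.383, with a difference of 0.20 when 3-day rat 1 was left out). The interval of Csf1r ran from -0.24 to 0.44 and that of Cd68 from -0.40 to 0.17. Cd14, the endotoxin co-receptor, was 12.21, 11.62 and 12.02 at 3 days and 11.22, 11.13 and 11.64 at 10 days (-0.62 ± 0.17, adjusted p = 0.259), with overlap. The mannose receptor Mrc1 differed by -0.54 ± 0.22 (adjusted p = 0.413, with a difference of -0.32 when 10-day rat 1 was left out). None of 15 Kupffer cell identity genes passed, and 5 were lower at 10 days without overlap, against 7.74% of all genes. The Kupffer list's median of -0.17 was -0.0018 without 3-day rat 3 and -0.26 without 10-day rat 1. Clec4f differed by 0.06 ± 0.23 and Cd163 by -0.17 ± 0.19.

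No iron, scavenger or lipid handling gene passed, and 3 genes of uptake and export with the smallest p of their lists are described. Ferroportin (Slc40a1), the iron exporter, was 7.63, 7.80 and 7.90 at 3 days and 7.26, 6.88 and 6.82 at 10 days, above sham at 6.13, 6.71 and 6.69 (-0.79 ± 0.17, adjusted p = 0.180). It was the lowest of 23 iron and haem genes, of which none passed (median -0.11, and -0.06 without 3-day rat 3). Of these genes 5 were lower and 1 higher without overlap, against 7.74% and 6.9% of all genes. The scavenger receptor Msr1 was 10.41, 10.47 and 10.23 at 3 days and 10.02, 9.97 and 9.88 at 10 days, with sham at 9.32, 9.43 and 9.56. These 3 groups did not overlap (-0.41 ± 0.09, adjusted p = 0.179). Abca1, which exports cholesterol, was 9.26, 8.44 and 9.40 at 3 days and 8.18, 8.29 and 8.39 at 10 days (-0.75 ± 0.22, adjusted p = 0.282). It differed by -1.04 without 3-day rat 2, where it passed (adjusted p = 0.0335). In the scar-associated list none of 14 genes passed, with galectin 3 (Lgals3) at -0.40 ± 0.10 and osteopontin (Spp1) at -0.43 ± 0.17 (adjusted p = 0.239 and 0.398). Spp1 was 11.10, 10.48 and 10.63 at 3 days and 10.20, 10.24 and 10.50 at 10 days, with overlap, and differed by -0.24 without 3-day rat 1. Haem oxygenase (Hmox1) differed by -0.10 ± 0.12.

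Cholesterol synthesis genes stood on the other side of 0. None of 15 passed, and 2 were higher at 10 days without overlap, against 6.9% of all genes. The list's median was 0.09 (0.06 without 10-day rat 1). Squalene epoxidase (Sqle), an early enzyme of the sterol branch, was 7.93, 8.22 and 7.92 at 3 days and 8.84, 8.41 and 8.77 at 10 days, against 8.12, 8.27 and 8.16 in sham (0.65 ± 0.12, adjusted p = 0.164). Srebf2, the transcription factor of the pathway, was 9.89, 9.91 and 9.81 at 3 days and 10.09, 10.01 and 10.04 at 10 days (0.18 ± 0.06, adjusted p = 0.318). Insig1, which retains that factor in the endoplasmic reticulum when sterols are plentiful, differed by 0.29 ± 0.10 (adjusted p = 0.329).

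Interferon response genes had the highest median of the gene lists, 0.20 over 34 genes, with 30 of 34 above 0. None passed, and 4 were higher at 10 days without overlap, where 6.9% of all genes were. The median was 0.07 without 10-day rat 1 and 0.10 without 3-day rat 1. The list's score was -0.36, -0.16 and -0.11 at 3 days and 0.29, -0.12 and -0.17 at 10 days, so that 10-day rat 1 stood above the other rats of its day. Rsad2, known as viperin, was 6.06, 5.91 and 6.10 at 3 days and 7.28, 6.46 and 6.38 at 10 days, against 6.76, 6.92 and 7.03 in sham (0.68 ± 0.20, adjusted p = 0.282, with a difference of 0.40 when 10-day rat 1 was left out). Ifih1, a sensor of double-stranded RNA, was 8.79, 9.02 and 8.86 at 3 days and 9.49, 9.14 and 9.12 at 10 days (0.36 ± 0.11, adjusted p = 0.314). Ifit1 differed in the other direction, by -0.56 ± 0.20 (adjusted p = 0.364, with a difference of -0.33 when 3-day rat 2 was left out). Of 14 class II presentation genes none passed or was without overlap, where 14.6% of all genes were without overlap. The class II median was 0.05. The invariant chain Cd74 had an interval from -0.04 to 0.22.

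Genes of growth, vessels and matrix repair gave values in both directions. Ccnd1, which encodes cyclin D1, was 5.93, 5.56 and 6.03 at 3 days and 6.49, 6.40 and 6.43 at 10 days, below sham at 6.66, 6.85 and 7.0 (0.61 ± 0.12, adjusted p = 0.178). It was the highest of 30 cell cycle genes, of which none passed and whose median was 0.04. Among 22 angiogenic factors Sema3c fell, and the median was -0.01. Nrp1, a receptor of semaphorins and of vascular endothelial growth factor, was 8.67, 9.35 and 9.35 at 3 days and 10.03, 9.60 and 9.66 at 10 days, with 8.99, 9.19 and 9.12 in sham (0.64 ± 0.18, adjusted p = 0.280, with a difference of 0.41 when 3-day rat 1 was left out). Hbegf, a growth factor of the epidermal growth factor family, was 9.80, 10.45 and 9.87 at 3 days and 9.15, 9.54 and 9.48 at 10 days (-0.65 ± 0.17, adjusted p = 0.259). Vegfa differed by 0.06 ± 0.10, with an interval from -0.16 to 0.28.

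Car4, Serpinb1a, Fam20c and Pla2g2d belong to the set of genes fixed with earlier results of these data known. Their values are given for that reason, and a contrast among them is not a result. The carbonic anhydrase Car4 was 8.63, 8.72 and 7.92 at 3 days and 7.24, 7.59 and 6.54 at 10 days, against 5.95, 6.29 and 6.49 in sham (-1.30 ± 0.28, adjusted p = 0.194). Serpinb1a, an inhibitor of neutrophil proteases, differed by -1.46 ± 0.37 (adjusted p = 0.236). Fam20c, a kinase of secreted proteins, was 7.71, 7.83 and 7.45 at 3 days and 7.68, 7.45 and 7.73 at 10 days, both above sham at 6.09, 6.73 and 6.82. Its difference was -0.04 ± 0.18, with an interval from -0.45 to 0.37. The phospholipase Pla2g2d was 8.29, 9.17 and 8.89 at 3 days and 8.94, 8.60 and 8.13 at 10 days, and its interval ran from -0.75 to 0.30.

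None of the genes of the remaining lists passed, and their medians are given beside 0.0053 for all genes. They were those of alternative activation (19 genes, -0.12), scavenger and phagocytic receptors (23 genes, -0.12), complement (13 genes, -0.22), lipid handling (22 genes, -0.08), Toll-like receptors (17 genes, -0.06), lysosome (20 genes, -0.03), oxidative burst (21 genes, -0.04), respiratory chain (22 genes, -0.02) and glycolysis (18 genes, 0.01). Without 3-day rat 3 the complement median was -0.08 and that of the scavenger receptors -0.03. Of the 13 complement genes 4 were lower at 10 days without overlap, against 7.74% of all genes. Among these 4 were the protease Cfd (-0.53 ± 0.14) and the ficolin Fcnb (-0.63 ± 0.18), with adjusted p of 0.259 and 0.282.

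**Figure D4:**
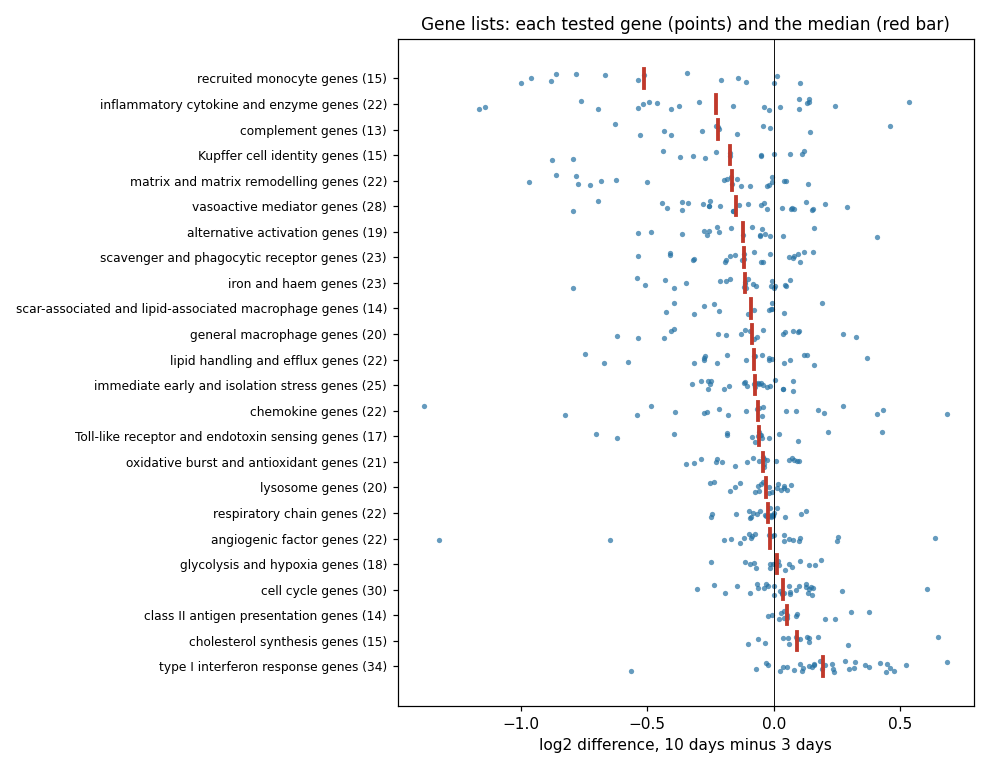
Log2 difference (10 days minus 3 days, horizontal) of each tested gene of the 24 gene lists (points), with the list's median as a red bar and the number of tested genes in brackets. Medians run from -0.51 for recruited monocyte genes to 0.20 for type I interferon response genes, with most lists near 0.

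Markers of other cell types were among the genes tested, and no marker passed the test. In some lists part of the markers lay below the filter, as for hepatocytes, where 14 of 21 markers found were tested. Platelet markers had the lowest median of the 14 marker lists, -0.57 over 10 genes, with 9 of 10 below 0. Of the 10, 2 were lower at 10 days without overlap, against 7.74% of all genes. Platelet factor 4 (Pf4) was 8.87, 7.37 and 8.95 at 3 days and 6.84, 6.74 and 7.46 at 10 days (-1.38 ± 0.38, adjusted p = 0.261). The glycoprotein Gp5 was 6.55, 5.73 and 6.51 and then 5.48, 5.27 and 5.71 (-0.78 ± 0.20, adjusted p = 0.242). In both genes 3-day rat 2 lay near the sham rats, and without it both passed (adjusted p = 0.0302 for each). T cell markers had a median of -0.11 over 17 genes, with scores of -0.21, -0.01 and 0.08 at 3 days and -0.18, -0.08 and -0.26 at 10 days. The T cell median was -0.22 without 3-day rat 1 and -0.05 without 10-day rat 3. Natural killer cell markers had a median of -0.17 over 13 genes, all below 0, with 3-day rat 3 at -0.29 against 0.17 and 0.05 in the other rats of its day. Without that rat the median was -0.31, and without 3-day rat 1 it was -0.08. Cd5 differed by -0.14 ± 0.10 and Gzmc by -0.13 ± 0.13. The dendritic cell genes Flt3 (0.59 ± 0.18) and Clec9a (0.43 ± 0.11) were both higher at 10 days without overlap (adjusted p = 0.282 and 0.250). Of the 10 genes of their list 3 were higher without overlap, against 6.9% of all genes, and 4 lay below 0. The list's median was 0.01, or -0.01 without 10-day rat 1 and 0.11 without 3-day rat 2.

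Other marker lists differed less or varied within a day. B cell markers had scores of 0.12, -0.14 and 0.41 at 3 days and 0.14, 0.07 and 0.41 at 10 days, and those of plasma cells were -0.15, -0.03 and 0.35 at 3 days and 0.19, -0.02 and 0.09 at 10 days. These scores stand beside the rise of Igkvl7, and their part in it was not tested. Hepatocyte markers had a median of 0.01 over 14 genes, with albumin (Alb) at 8.23, 7.30 and 9.01 at 3 days and 7.76, 8.25 and 8.30 at 10 days. Fetub, one of the hepatocyte genes, was 6.84, 7.18 and 6.52 and then 6.31, 6.17 and 5.61 (-0.82 ± 0.20, adjusted p = 0.216). Sinusoidal endothelial markers had a median of -0.02 over 11 genes and stellate cell markers 0.09 over 11. The endothelial median was 0.11 without 10-day rat 1, and the hepatocyte median was -0.08 without 3-day rat 2. In bulk RNA, fewer cells of a type and less RNA per cell cannot be told apart.

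**Figure D5:**
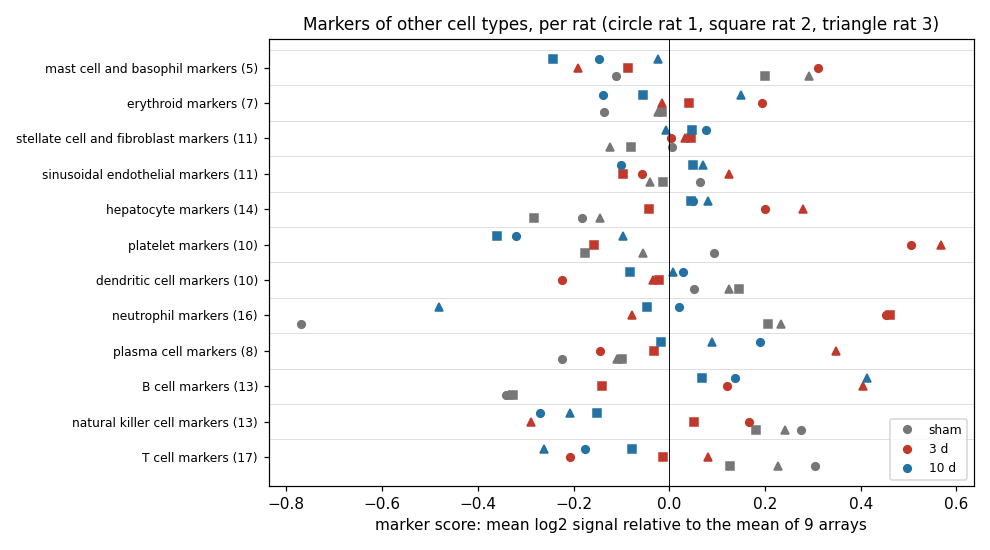
Score of 12 marker lists of other cell types with at least 5 tested genes (number in brackets), as the mean log2 signal of the list on an array relative to the mean of the 9 arrays. Each point is 1 rat: in the platelet list 3-day rats 1 and 3 lie at 0.50 and 0.57 and 3-day rat 2 at -0.16, beside the 10-day rats at -0.36 to -0.10.

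MicroRNA loci were among the probesets just below the threshold. The 3 that the naming rule picked are each shown by 1 mature RNA that RefSeq (GRCr8) lists for them. The seed, bases 2 to 8 in capitals, sets which messages a microRNA pairs with. The arms miR-146b-3p and miR-181b-1-3p, also listed, are left out, and miR-146a-5p is added as a seed partner.
rno-miR-146b-5p: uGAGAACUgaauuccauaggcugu
rno-miR-146a-5p: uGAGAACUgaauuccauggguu
rno-miR-181b-5p: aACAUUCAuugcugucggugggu
rno-miR-877: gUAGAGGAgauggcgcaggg
The first lies at chr1:255144874-255144897 on the plus strand and the miR-181b-5p of this locus at chr13:52037263-52037285 on the plus strand. The seed of miR-146b-5p is shared with miR-146a-5p, an arm known to target adaptors of Toll-like receptor signalling. That of miR-181b-5p is shared with miR-181a-5p, miR-181c-5p and miR-181d-5p. A probeset with the symbol of a microRNA gene reads RNA from that locus, such as the precursor, and the mature arm was not measured here. Mir146b was 5.44, 5.77 and 5.54 at 3 days and 4.98, 4.92 and 4.72 at 10 days, below sham at 5.12, 5.07 and 5.24 (-0.71 ± 0.10, adjusted p = 0.0501). Mir146a, at another locus, was 6.10, 6.98 and 6.25 at 3 days and 6.28, 6.01 and 5.92 at 10 days, with overlap (-0.38 ± 0.20, adjusted p = 0.514, with a difference of -0.11 when 3-day rat 2 was left out). Mir181b1 was 8.38, 8.32 and 8.59 at 3 days and 7.79, 8.0 and 7.5 at 10 days (-0.67 ± 0.12, adjusted p = 0.165). Mir877 stood in the other direction, at 4.85, 5.26 and 4.91 and then 5.74, 5.53 and 5.84 (0.70 ± 0.12, adjusted p = 0.126), and it passed without 3-day rat 2 (adjusted p = 0.0302).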

How the data were processed

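The authors deposited log2 signals, made with robust multi-array average (RMA) and Transcriptome Analysis Console per the submitters' processing notes, with versions and genome build not given in the sources used here. No further normalization was applied; array number sets the precision.

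Of 36685 probesets, 18511 carried 1 gene symbol in the platform annotation (18166 genes), 575 several and 17599 none. The probeset with the highest mean over 9 arrays stood for its gene, and genes whose mean reached the level below which 30% of probesets lie (4.16) were kept, 14014 in all. limma 3.58.1 in R 4.3.3 was fitted to all 9 arrays with no covariate, 2-sided. With 3 rats against 3, an exact permutation test cannot go below p = 0.1. In 20 simulated sets of 14014 genes, 200 of them shifted, the procedure called 65.2% of the genes shifted by 0.5 and 95.8% of those shifted by 1 (log2). Of its calls 4.96% were false. Each gene was drawn independently from a normal distribution with its own mean and spread, without differences that run across a whole array. The rates therefore need not hold for the deposited arrays, where the calls depended on single arrays.

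The 38 lists and the rule for named genes were chosen with earlier results of these data known. Of the list entries 93 had no probeset with a single matching symbol here. The rule took up to 15 rises and 15 falls past the test without overlap, filled the places left by the smallest p among genes that differed by at least 1.5-fold without overlap (1 unnamed locus skipped), and added up to 4 genes a list and a fixed set. Alox5ap, Ccr2, Cd80, Csf1r, Il1a, Mir146a, Plau, Tbxas1 and Timp1 fall outside it and were chosen after their values were seen. Alternatives were the filter, probesets, normalization, moderation, weights, groups fitted, block, covariates, threshold and leaving out each array.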

Additional observations from a re-analysis of the deposited data

How the results depend on the processing

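The number of genes past the test (10) was 8 to 12 with no filter, a filter at the median, averaged probesets, quantile normalization, trended moderation, array weights or an adjusted p under 0.1. It was 3 with only the 2 groups compared (1 of them among the 10), 18 with the hepatocyte score as a covariate (8 among the 10), 0 with the T and NK cell score as a covariate (where the difference of Sema3c was -1.28 and that of Fn1 -0.87, with larger standard errors) and 0 over all probesets, an alternative added after seeing the data. Leaving out 1 array gave 0 to 18 genes. Same-numbered rats of the 2 days deviated from their group means with correlations of -0.09, -0.03 and 0.05. Rats of unlike number were not compared in this way, so these values cannot exclude a pairing. The labels give none, and the main fit used none. The replicate block gave 0 genes. In limma the 10 called genes kept their direction in each gene-level fit that tested them. Genes without overlap (2051) were 2051 to 3647 with 1 array left out, where fewer rats are compared, and 5292 over all probesets. The differences that changed sign were those of uncalled genes. With array weights Alb was 0.0021, and with the hepatocyte score Alb was 0.39 and Cd163 0.032. With the T and NK cell score Cd5 was 0.094, Gzmc 0.11, Pla2g2d 0.043, Cd74 -0.0095, Clec4f -0.18 and Csf1r -0.0046. With 1 array left out the ranges were -0.52 to 0.33 for Alb, -0.39 to 0.054 for Cd163, -0.21 to 0.0075 for Cd68, -0.16 to 0.38 for Clec4f, -0.10 to 0.22 for Csf1r, -0.15 to 0.044 for Fam20c, -0.25 to 0.010 for Gzmc and -0.037 to 0.16 for Vegfa. Of 36 lists with a median in these fits, 31 moved by over 1.5 times with some array left out and 9 changed sign. The cause was not tested.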

Other observations

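Olfactory receptor genes, which encode odorant receptors and lay near the lower end of the signal, had a median difference above 0. Ribosomal protein genes, which encode parts of the ribosome and were bright, had one below 0. Both groups were chosen after their values were seen, by the start of their symbols and leaving out pseudogenes of ribosomal proteins such as Rpl26-ps13, and were not tested as groups. Of 205 olfactory receptor genes 25 were higher (12.2%) and 3 lower at 10 days without overlap, with a median difference of 0.11. Of 134 ribosomal protein genes 7 were higher and 44 lower (32.8%), with a median of -0.08. After quantile normalization these counts were 22 and 6 for olfactory receptors, with a median of 0.08, and 11 and 33 for ribosomal proteins, with a median of -0.06. Of all genes 6.9% were higher and 7.74% lower without overlap, and after quantile normalization 1316 were higher and 992 lower. No gene of either group, as so defined, passed the test. Of 172 microRNA loci 31 were higher (18.0%) and 16 lower (9.30%), or 26 and 17 after quantile normalization.

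The split by brightness extended to all genes. With genes cut into 4 equal bins by mean signal, 402 genes of the dimmest bin were higher and 63 lower at 10 days without overlap, and in the brightest bin 148 were higher and 415 lower. After quantile normalization the dimmest bin gave 225 higher and 272 lower and the brightest 419 and 222, so the balance of higher and lower genes in both bins turned with the scaling. The SD of signal over all probesets of an array was 2.18 to 2.19 at 3 days and 2.16 at 10 days.

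The lowest difference of all tested genes belonged to Ly6al, a member of the Ly6 family, chosen here after its values were seen. It was 8.68, 8.84 and 8.0 at 3 days and 3.77, 7.16 and 6.42 at 10 days, with 3.33, 5.48 and 5.83 in sham (-2.73 ± 0.85, limma adjusted p = 0.309). Without 10-day rat 1 the difference was -1.72. Retnlg, a resistin-like gene of neutrophils, was 8.08, 7.15 and 6.26 at 3 days and 5.63, 5.33 and 4.11 at 10 days (-2.14 ± 0.80, adjusted p = 0.377). At an unadjusted p under 0.05, 15 genes were lower and 2 higher at 10 days by at least 2-fold.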
